A study of Mus musculus with 14 samples.

Results

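The genes described here encode the proteins of the cytosolic ribosome, together with their paralogues, among them Rpl3l, a copy of Rpl3 made in skeletal muscle and heart. They were taken as the array features annotated with a single gene symbol that starts with Rpl or Rps followed by a number, a or p. Ribosomal S6 kinases and pseudogene symbols were left out. This gave 63 genes on 219 probe sets, out of 19938 genes tested. Of the 63, 54 are standard subunit proteins (30 of the large subunit, 21 of the small subunit and 3 of the P stalk), and 7 are paralogues. The remaining 2, Rps19bp1 and Rps23rg1, are named after ribosomal proteins but are not subunits. The 54 are called core genes below. A list of 77 core symbols was matched, so 23 had no feature of their own. Rpl3, the parent gene of Rpl3l, is among those, because its probe sets carried several gene names. All 63 genes entered the tests, since no filter on low signal was applied.

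Each ribosome holds a single copy of nearly every one of these proteins, and the P stalk, which brings elongation factors to the ribosome, holds several copies of its acidic proteins. The mRNAs of ribosomal proteins begin with a run of pyrimidines called a 5′ terminal oligopyrimidine (TOP) tract, through which mTOR signalling and the protein Larp1 control their translation. Ribosome production is known to increase in growing skeletal muscle. Rpl3l takes the place of Rpl3 near the catalytic centre of muscle ribosomes, and it is known to fall in mouse muscle that grows under load.

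RNA came from the plantaris, a calf muscle, of male C57BL/6J mice aged 25 months, on days 0, 1, 3, 5, 7, 10 and 14 of overload. Overload was produced by synergist ablation, the surgical removal of the gastrocnemius and soleus, so that the plantaris carries their load. Day 0 was the only control, no array was labelled as sham-operated, and young muscle was not analysed here, so surgery and load cannot be told apart. Each day had 2 Affymetrix arrays, with RNA pooled from the left muscles of 6 animals on the first and from the right muscles of 6 animals on the second. The labels do not make these pools separate sets of animals, so the spread between them may miss part of the variation between animals.

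Values are log2 signals, in which a difference of 1 is a 2-fold change, and they were compared only within a gene. Differences are given ± the standard error of a linear model (limma, n = 2 arrays a day). "Rose" and "fell" refer to an adjusted p under 0.05, with Benjamini-Hochberg adjustment over all genes. The 14 arrays were alike, with medians between 8.25 and 8.42 over the genes tested and left to right correlations across genes from 0.994 to 0.997. The 20 muscle fibre markers had day 0 means from 9.72 to 14.4 and were thus present on the arrays labelled as muscle. The median difference of all genes from day 0 was 0.04 on day 1, -0.07 on day 3, -0.12 on day 5, -0.14 on day 7, -0.13 on day 10 and -0.11 on day 14. The differences of the ribosomal genes below are to be read against these shifts.

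The upstream sequences of 6 of these genes are shown because most core genes moved together. They are those of Rpl3l, of the 2 genes with the largest day 7 rise (Rps12 and Rps28) and of the gene with the smallest day 7 difference (Rpl22). Rps10 and Rps6 were added, after their sequences were seen, as examples with a TOP tract at the annotated start. Each runs from 75 bases before to 25 bases after a RefSeq start in build GRCm38.p6, 5′ to 3′ on the gene's strand. The windows are chr17:24727751-24727850 (plus strand) for Rpl3l, chr10:23787185-23787284 (minus strand) for Rps12, chr17:33824538-33824637 (minus strand) for Rps28, chr4:152324361-152324460 (plus strand) for Rpl22, chr17:27635220-27635319 (minus strand) for Rps10 and chr4:86857343-86857442 (minus strand) for Rps6. The start listed for Rps12 lies inside the RefSeq span of the gene. Capitals mark a TOP tract that begins within 5 bases of the start, or a CCGGAAG motif.
Rpl3l: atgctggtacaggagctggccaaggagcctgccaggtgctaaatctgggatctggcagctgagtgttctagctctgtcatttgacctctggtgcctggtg
Rps12: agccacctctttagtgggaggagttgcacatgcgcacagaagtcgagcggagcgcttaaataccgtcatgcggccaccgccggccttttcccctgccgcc
Rps28: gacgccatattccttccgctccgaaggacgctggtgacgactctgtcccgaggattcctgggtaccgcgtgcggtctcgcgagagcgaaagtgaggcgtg
Rpl22: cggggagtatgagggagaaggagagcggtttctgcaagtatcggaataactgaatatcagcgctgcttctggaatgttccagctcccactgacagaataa
Rps10: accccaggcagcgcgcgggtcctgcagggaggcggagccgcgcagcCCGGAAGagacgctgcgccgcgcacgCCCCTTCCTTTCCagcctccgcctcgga
Rps6: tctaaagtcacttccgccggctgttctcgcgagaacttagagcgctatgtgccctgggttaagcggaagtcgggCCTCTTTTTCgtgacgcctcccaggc

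The same motifs were searched in the RefSeq promoter table, whose windows of 300 bases run from 250 before to 50 after a start. Windows were found for 51 of the 63 genes, 43 of them core genes, and for 27025 genes in all. A TOP tract was counted as a C and then at least 4 further C or T, on the gene's strand, beginning within 5 bases of the start. It was found in 16 of the 43 core genes (37.2%), against 21.2% of all genes. Ribosomal protein mRNAs are described above as beginning with such a tract, so a gene without one here may have an inexactly listed start. CCGGAAG, the core of binding sites of ETS family factors, was searched on both strands of the 300 bases and was found in 17 core genes (39.5%), against 9.93% of all genes. TATAAA, searched in the same way, was found in 5 core genes (11.6%), against 15.7% of all genes. The motifs can overlap in a promoter, as in Rps10. The day 7 differences were alike with and without a TOP tract at this position, with medians of 0.59 over 16 genes and 0.59 over 27 genes. The 27 genes may include TOP mRNAs, so these medians do not compare TOP mRNAs with others. The day 7 differences had medians of 0.66 with CCGGAAG (17 genes, 0.16 to 0.93) and 0.58 without it (26 genes, 0.03 to 1.15), and these ranges overlapped almost wholly. With TATAAA the median was 0.32 (5 genes, 0.03 to 0.99), against 0.61 without it (38 genes, 0.15 to 1.15). This was the widest gap of the 3 motifs, over few genes and with overlapping ranges, and none of these differences was tested.

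Core ribosomal protein genes rose as a block between day 1 and day 3, stayed up through day 10 and were partly down again on day 14. Their median difference from day 0 was 0.14 on day 1, 0.51 on day 3, 0.52 on day 5, 0.58 on day 7, 0.50 on day 10 and 0.24 on day 14. Of the 54, 13 rose on day 1, 49 on day 3, 47 on day 5, 49 on day 7, 46 on day 10 and 28 on day 14. Rpl22 alone among them fell, on days 1 and 14. On days 3, 5, 7 and 10, 44 core genes were higher each time, 28 were also higher on day 14, and 10 were higher on all 6 days. The highest daily mean fell on day 7 for 37 core genes, on day 3 for 13, on day 1 for 2 and on day 10 for 2. The counts over several days and the days of the highest mean were not taken over all genes, so they have no background here.

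**Figure D1:**
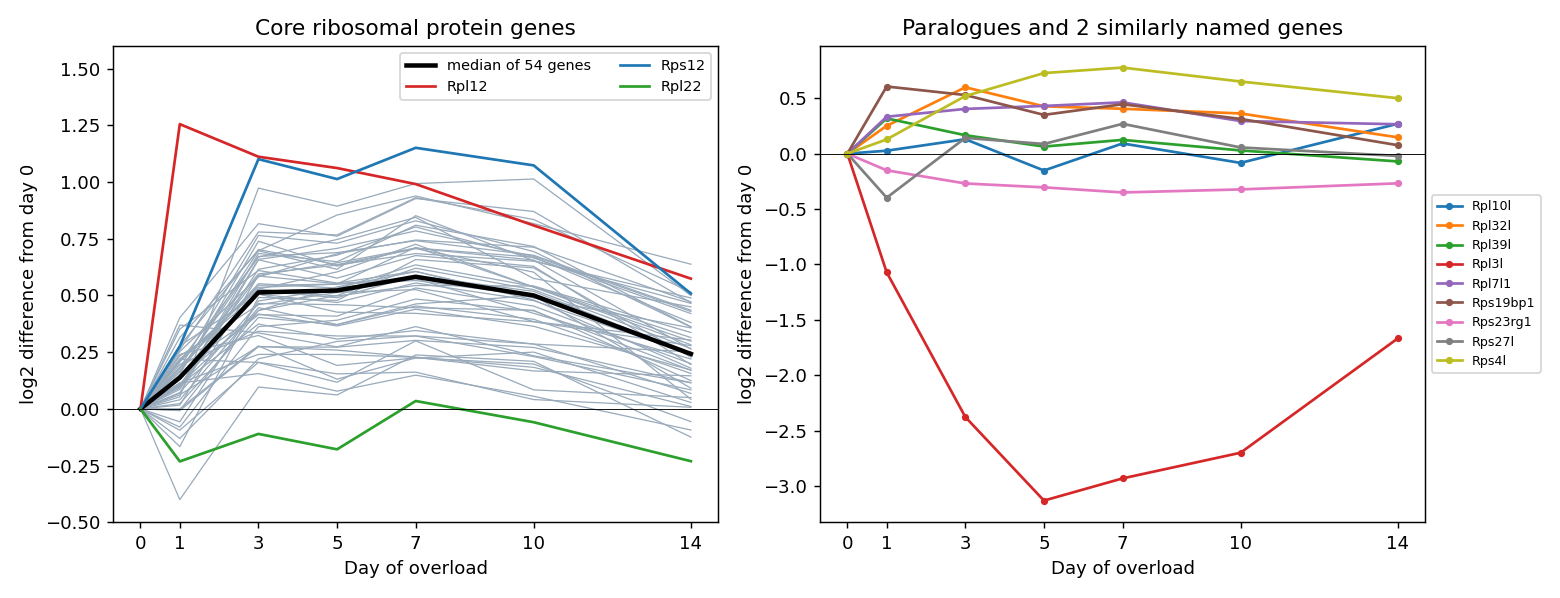
Difference of the mean log2 signal from day 0 (y axis) by day of overload (x axis), 2 arrays a day. The left panel has a line for each of the 54 core genes, with their median in black, and the right panel has the 7 paralogues with Rps19bp1 and Rps23rg1. The core median reaches 0.51 on day 3 and 0.58 on day 7, while Rpl3l falls to -3.13 on day 5.

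Over all 63 genes, 16 rose and 3 fell on day 1, when 22.3% of all genes rose and 22.6% fell. The rising share of the members on that day was thus close to that of all genes, while their falling share was well below it. On day 3, 53 rose and 1 fell (background 24.1% and 26.6%), and on day 5, 51 rose and 2 fell (26.4% and 33.7%). On day 7, 54 rose and 2 fell (26.6% and 36.3%), on day 10, 50 rose and 2 fell (25.9% and 34.3%), and on day 14, 30 rose and 2 fell (22.9% and 30.5%). From day 3 on, the rising share was therefore well above the background, and the falling share stayed well below it. By a moderated F test over all days, 57 of the 63 genes changed, against 79.5% of all genes. Counting without a model, both arrays lay above both day 0 arrays for 36 of the 63 genes on day 1 (36.5% of all genes), 58 on day 3 (31.6%), 56 on day 5 (32.5%), 58 on day 7 (32.6%), 55 on day 10 (32.1%) and 46 on day 14 (30% of all genes).

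The counts on days 1 and 14 were not stable when an array was left out. Such a fit has 1 array on a day, so a lost call need not point to the array left out. Without the left array of day 1, or without the right array of day 0, 4 of the 63 genes rose on day 1 in place of 16. The left pool of day 1 lay above the right pool by a median of 0.18 over the core genes, with the widest gap, 1.02, for Rpl14. Compared within a side, the core median on day 1 was 0.20 in the left pools, with 47 of 54 genes above day 0, and 0.07 in the right pools, with 36 of 54 above. On day 7 the same values were 0.52 with 54 of 54 on the left and 0.61 with 53 of 54 on the right. On day 14, 18 genes rose without that day's right array and 19 without the right array of day 0, in place of 30. With equal array medians, 16 rose and 4 fell on day 14, in place of 30 and 2.

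Between days 1 and 3, 48 of the 63 genes rose (background 19.5%) and 1, Rpl3l, fell (24.7%). The median core rise in this step was 0.38. Without the right array of day 1, 27 genes were called in this step, and without the left array of day 3, 31. None was called between days 3 and 5 (background 4.68% higher and 1.9% lower), days 5 and 7 (0.401% and 0.627%) or days 7 and 10 (0.933% and 1%) by limma. At an unadjusted p under 0.05 there were 2, 1 and 4 of the 63 genes in these steps, against 4059, 2378 and 3003 of all 19938 genes. With the left or right side as a block 1, 0 and 0 were called. Without the left array of day 5, 1 gene was called between days 3 and 5. Between days 10 and 14, 9 core genes fell (5.11%) and 1 gene, Rpl3l, rose (3.79%). The 9 were Rpl8, Rpl23, Rpl36a, Rpl37a, Rps9, Rps12, Rps18, Rps28 and Rpsa, and the core median of this step was -0.24. All 54 core genes had a lower mean on day 14 than on day 10, while 9997 of all 19938 genes had a higher one. These 10 calls depended on the arrays and settings. At an unadjusted p under 0.05 there were 39 of the 63 genes in this step, against 4774 of all 19938 genes. By adjusted p, 20 were called without the 25% of genes with the lowest signal, 22 with an intensity trend and 19 with array weights. In the other direction, 0 were left without the left array of day 10, 4 without its right array, 2 without the left array of day 14 and 3 without its right array.

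In the small subunit, which reads the mRNA, all 21 genes rose on day 7, with a median of 0.71 and a range from 0.22 to 1.15. Their counts of rises were 4 on day 1, 20 on day 3, 19 on day 5, 19 on day 10 and 12 on day 14. The largest day 7 rise was that of Rps12, which has 14 probe sets, all of them higher on that day. Its left and right signals were 10.65 and 10.78 on day 0, 11.13 and 10.85 on day 1, 11.85 and 11.79 on day 3, 11.69 and 11.77 on day 5, 11.84 and 11.90 on day 7, 11.91 and 11.68 on day 10, and 11.27 and 11.18 on day 14. All arrays from day 1 on were above both day 0 arrays, and the day 7 difference was 1.15 ± 0.10 (adjusted p = 1.2e-06), a 2.22-fold rise. Rps12 then fell by 0.57 from day 10 to day 14 (adjusted p = 0.0081, and 0.071 without the left array of day 10).

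Rps28, a small protein near the mRNA exit, was at 10.90 and 11.11 on day 0 and at 11.10 and 11.02 on day 1, so that those days overlapped. It was at 12.03 and 11.93 on day 3, 11.91 and 11.89 on day 5, 12.01 and 11.99 on day 7, 12.13 and 11.91 on day 10, and 11.42 and 11.59 on day 14. Its rise was 0.99 ± 0.10 on day 7 (adjusted p = 2.5e-06), and its 7 probe sets were all higher. Rps7, which also takes part in making the small subunit, rose by 0.93 ± 0.09 on day 7, from 11.83 and 11.81 to 12.77 and 12.73. Rps19, the gene first linked to Diamond-Blackfan anaemia, and Rps3, at the mRNA entry channel, had the largest small subunit rises on day 1, 0.40 and 0.35. Without the left array of day 1 these were 0.25 (adjusted p = 0.13) and 0.24 (adjusted p = 0.064), and without the right array of day 0 that of Rps19 was 0.32 (adjusted p = 0.093). Rpsa, also known as the laminin receptor precursor, rose by 0.71 ± 0.11 on day 7. Its signals were 11.18 and 11.27 on day 0, 11.85 and 12.01 on day 7, and 11.40 and 11.14 on day 14, so the day 14 arrays straddled those of day 0.

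The smallest day 7 rises in this subunit were those of Rps25 (0.22) and Rps6 (0.23). The day 7 differences ran from 0.22 to 0.38 over the 6 probe sets of Rps25, all called higher. They ran from 0.16 to 0.28 over the 8 of Rps6, of which 6 were called higher. Rps6, the substrate of the S6 kinases, was at 13.65 and 13.70 on day 0 and at 13.88 and 13.92 on day 7, with an adjusted p of 0.014. Both calls were lost with equal array medians, where the differences were 0.08 and 0.08, and with only the 4 arrays compared. They were also lost without the left array of day 0 or the right array of day 7, where the differences were 0.12 and 0.20 for Rps25 and 0.20 and 0.21 for Rps6, and that of Rps25 (0.25) without the left array of day 7. Rps21 was at -0.17 on day 1 and did not pass the test, and it rose by 0.66 on day 7. The other of its 2 probe sets was at 0.03 on day 1 and 0.60 on day 7. Fau, whose product carries the small subunit protein eS30 but whose symbol falls outside the rule, rose by 0.33 on day 1 and 0.76 on day 7.

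In the large subunit, which forms the peptide bond, 26 of 30 genes rose on day 7, with a median of 0.56 and a range from 0.03 to 0.99. Rises numbered 7 on day 1, 26 on day 3, 26 on day 5, 25 on day 10 and 15 on day 14. The day 7 ranges of the subunits overlapped, and the difference between their medians was not tested. Rpl12, a protein at the base of the P stalk, had the largest day 1 rise of the core genes. Its signals were 8.03 and 7.997 on day 0, 9.39 and 9.15 on day 1, 9.20 and 9.05 on day 3, 9.10 and 9.05 on day 5, 8.97 and 9.04 on day 7, 8.81 and 8.83 on day 10, and 8.65 and 8.52 on day 14. It was highest on day 1 and lower at each later mean, while the core median on day 1 was 0.14. The day 1 rise was 1.26 ± 0.09 (adjusted p = 3.2e-07). Rpl12 had 1 probe set with a single gene name, and probe sets that name it with other genes were not used.

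Rpl10a, of the ribosome's L1 stalk, rose by 0.94 ± 0.10 on day 7, from 12.69 and 12.44 to 13.48 and 13.53, and by 0.31 on day 1. Rpl30 rose early, by 0.37 on day 1 and 0.36 on day 7. Without the left array of day 1, the day 1 values of these genes were 0.23 (adjusted p = 0.16) for Rpl10a and 0.21 (adjusted p = 0.13) for Rpl30, and without the right array of day 0 they were 0.19 and 0.36 (adjusted p = 0.21 and 0.053). The day 7 rise of Rpl30 was lost with quantile normalization (0.19) and with equal array medians (0.22). The large subunit genes that did not pass the test on day 7 were Rpl22 (0.03), Rpl4 (0.15), Rpl34 (0.16) and Rpl14 (0.24). These are among the 24 of the 63 genes with 1 probe set. Rpl4, which lines the exit tunnel, was at 11.82 and 11.84 on day 0 and at 11.93 and 12.03 on day 7. Rpl34 was at 11.01 and 11.01, against 11.14 and 11.19. In both genes the day 7 arrays lay above those of day 0, and both passed the test when the median difference of all genes was set to 0.

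Rpl22, which is known to bind other RNAs besides ribosomal RNA, was the core gene that fell. It was at 10.00 and 10.06 on day 0, 9.91 and 9.69 on day 1, 9.88 and 9.96 on day 3, 9.88 and 9.82 on day 5, 10.12 and 10.01 on day 7, 9.98 and 9.97 on day 10, and 9.81 and 9.78 on day 14. Arrays of days 1 and 14 were all below day 0, and those of day 7 overlapped it. The differences were -0.23 on day 1 (adjusted p = 0.037) and -0.23 on day 14 (adjusted p = 0.033). Neither call was stable, although the sign was the same in every setting run. The day 1 call was lost without either day 0 array (-0.26 and -0.20), without the right array of day 1 (-0.12) and with array weights. That of day 14 was lost without any 1 of its 4 arrays, with differences from -0.26 to -0.20. Rpl14 was the noisiest core gene, with 8.78 and 8.45 on day 0 and 8.73 and 7.70 on day 1. Rpl21 stood at -0.13 on day 1 and rose by 0.32 on day 7, a call lost with equal array medians (0.18) and without the left array of day 0 (0.26) or the right array of day 7 (0.29). Over its 9 probe sets the differences ran from -0.13 to 0.0002 on day 1 and from 0.31 to 0.55 on day 7.

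The P stalk genes had rises of unlike size, which were not tested against each other. Rplp2 was read by 1 probe set whose day 0 signals lay below the array medians. Rplp1, an acidic stalk protein, was at 13.08 and 12.94 on day 0, 13.35 and 13.17 on day 1, 13.71 and 13.80 on day 7, and 13.52 and 13.45 on day 14. No later array fell into its day 0 range, and the day 7 rise was 0.74 ± 0.08 (adjusted p = 7.2e-06). Rplp0, which anchors the stalk and is often used as a reference gene in quantitative PCR, rose from 13.44 and 13.52 to 13.79 and 13.81 on day 7, by 0.32 ± 0.07 (adjusted p = 0.002). Rplp2, the partner of Rplp1, rose on day 3 by 0.32 (adjusted p = 0.023), a call lost without any 1 of the 4 arrays (0.29 to 0.35) and with quantile normalization or equal array medians. On day 7 it was at 8.12 and 8.25, against 7.95 and 7.97 on day 0, and did not pass the test (adjusted p = 0.084).

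**Figure D2:**
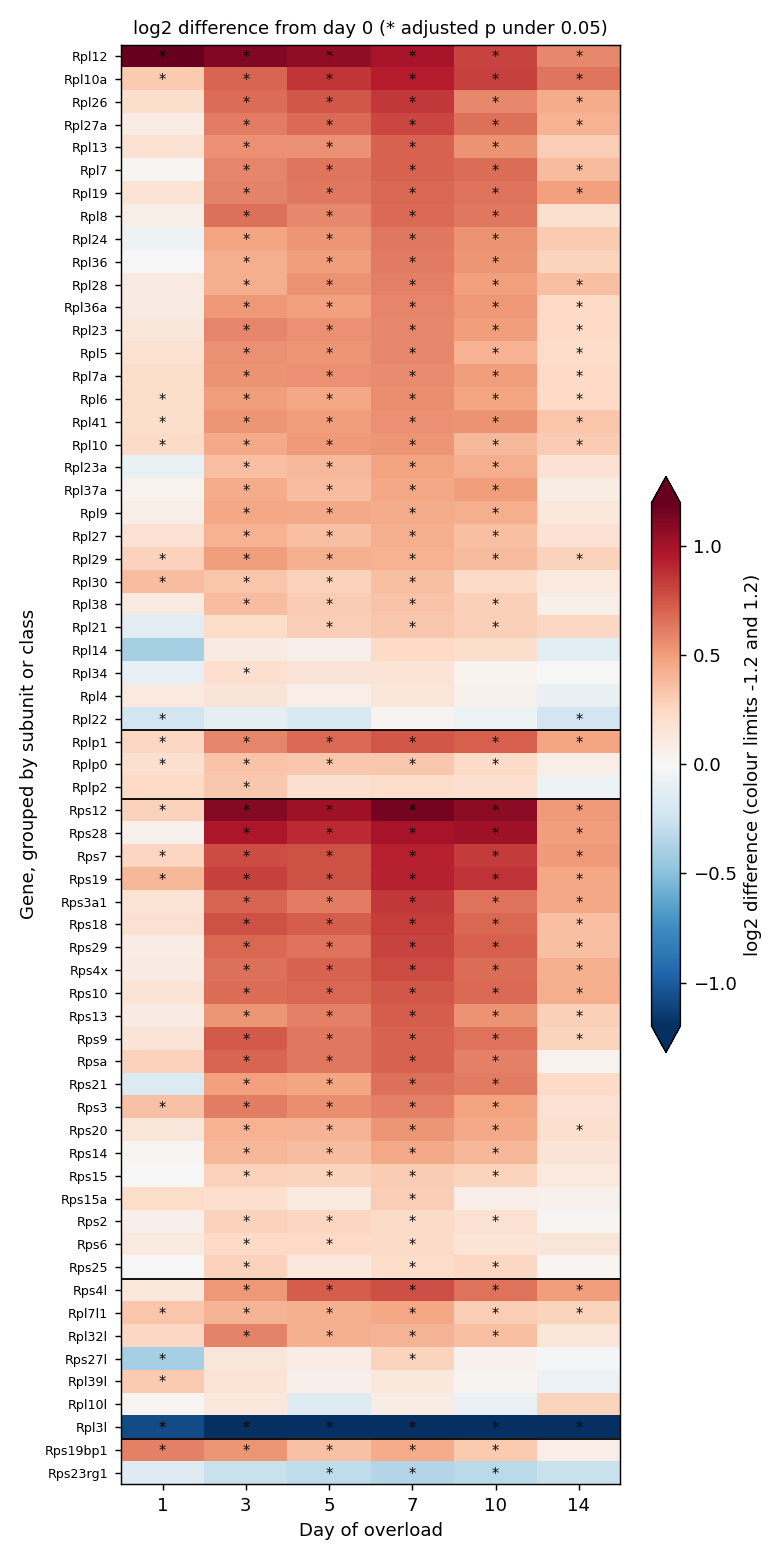
Difference of the mean log2 signal from day 0 for each of the 63 genes (rows, grouped as large subunit, P stalk, small subunit, paralogues and similarly named genes, each sorted by day 7) on days 1 to 14 (columns). Red is higher, blue lower, colours stop at -1.2 and 1.2, and a star marks an adjusted p under 0.05; all 21 small subunit genes carry a star on day 7.

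Among genes with several probe sets, the rise did not rest on the choice of probe set. Of the 39 such genes, 38 had all of their probe sets called higher on day 7. Probe sets of a gene can share signal and are not separate measurements. For Rpl41, the lowest and highest day 7 differences of its 3 probe sets were both 0.54. The spread of the day 7 difference over a gene's probe sets had a median of 0.12 and a maximum of 0.27. No such check exists for the 24 genes with 1 probe set, among them Rplp2, Rps19, Rps3 and Rpl30. Many processed pseudogenes resemble these mRNAs, so signal shared with near-identical copies cannot be told apart from that of the gene.

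Rpl3l moved the other way and by far more. The left and right signals were 12.10 and 12.14 on day 0, 11.18 and 10.91 on day 1, 9.93 and 9.56 on day 3, 9.39 and 8.59 on day 5, 9.49 and 8.88 on day 7, 9.58 and 9.26 on day 10, and 10.61 and 10.29 on day 14. Every array after day 0 lay below both day 0 arrays, with the lowest on day 5. The level on day 5 was 8.76-fold lower than on day 0, and on day 14 it was still 3.18-fold lower. Only 9 of 19938 genes had a lower difference on day 5, while 517 did on day 1 and 78 on day 14. The fall of Rpl3l passed the test on all 6 days under every alternative run, with day 5 differences from -3.53 to -2.73 when 1 array was left out. The rise from day 10 to day 14 was 1.03 (adjusted p = 0.027). This call was lost without any 1 of the 4 arrays, with rises from 0.87 to 1.19 and adjusted p from 0.055 to 0.19, and with an intensity trend (adjusted p = 0.063), while both arrays of day 14 lay above both of day 10. The steps from day 5 to day 7 and from day 7 to day 10 did not pass the test (adjusted p = 0.84 and 0.76).

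**Figure D3:**
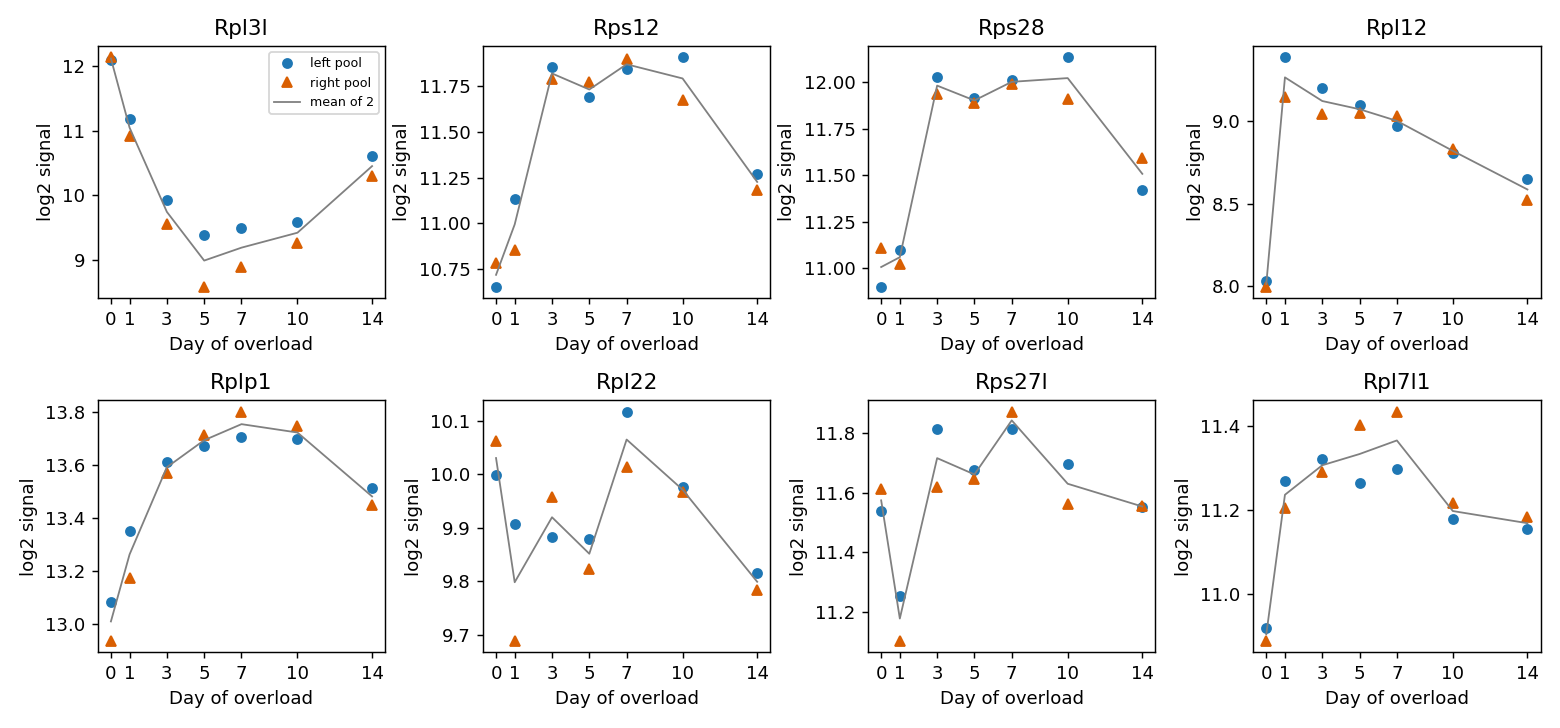
Log2 signal (y axis, a separate scale for each gene) of 8 genes by day of overload (x axis). Circles are left pools, triangles right pools, and the line joins the mean of the 2 arrays; Rpl3l drops from about 12.1 on day 0 to 9.39 and 8.59 on day 5, and Rpl12 is highest on day 1.

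Muscle fibre markers also fell, so Rpl3l was set against them within each array, a comparison added after the data were seen. The median difference of the 20 markers was -0.38 on day 1, -0.82 on day 3, -0.97 on day 5, -0.72 on day 7, -0.62 on day 10 and -0.24 on day 14. On each of the 6 days, 0 of the 20 markers had a lower difference than Rpl3l. The nearest on day 5 was Ampd1, the muscle AMP deaminase, at -1.99. On day 1 Ampd1 was almost level with Rpl3l, at -1.04 against -1.07 ± 0.25. Relative to the mean of the markers, Rpl3l fell by 0.65 ± 0.17 on day 1 (adjusted p = 0.0080), fell by 2.16 ± 0.17 on day 5 (adjusted p = 3.5e-07) and fell by 1.44 ± 0.17 on day 14 (adjusted p = 2.2e-05). The highest marker mean was 14.37 on day 0 and 14.23 on day 5, against a highest signal of 14.8 in the series. Whether signals that high show the full size of a fall was not tested. The markers did not move alike, with day 14 differences from -0.84 to 1.03. In pooled bulk muscle, fewer fibres and less mRNA per fibre cannot be told apart for the markers, and the part of either in the fall of Rpl3l was not tested.

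The genes whose 7 daily means followed Rpl3l most closely, among 4283 genes with a range of at least 1, were Txlnb, Tbx1, Plekhb1, Clip1 and E2f6, with Pearson's r from 0.994 to 0.997. Txlnb encodes a muscle taxilin, and its mean fell from 13.25 on day 0 to 11.25 on day 5 and was 12.20 on day 14. The core median was followed most closely, among 11001 genes with a range of at least 0.5, by the members Rpl6 and Rpl7a and by Smarcc1, Pafah1b3 and Erh (r from 0.992 to 0.999). Of these, Smarcc1 encodes a subunit of the SWI/SNF chromatin remodelling complex. These values are descriptions over 7 means that share the same arrays.

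The other 6 paralogues followed no common course. Rpl7l1, a relative of Rpl7 with a part in ribosome assembly, rose early and stayed up, from 10.92 and 10.89 on day 0 to 11.27 and 11.20 on day 1, 11.30 and 11.43 on day 7, and 11.15 and 11.18 on day 14. It rose on all 6 days, by 0.33 on day 1 and 0.46 on day 7, but with equal array medians the calls of days 10 and 14 were lost (0.16 and 0.15). Without the right array of day 0 or of day 14, that of day 14 was lost too (0.25 and 0.25). Against Rpl7 itself it was higher by 0.32 ± 0.11 on day 1 (adjusted p = 0.028) and lower on day 10 (-0.37 ± 0.11, adjusted p = 0.0094). The day 1 call was lost with an intensity trend, with array weights, and with only the 4 arrays compared.

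Rps27l, a relative of Rps27 and a known p53 target, was at 11.54 and 11.61 on day 0, 11.25 and 11.10 on day 1, and 11.81 and 11.87 on day 7. It fell by 0.40 on day 1 (adjusted p = 0.0022) and was 0.27 higher on day 7 (adjusted p = 0.017), a rise lost with equal array medians (0.12) and without the left array of day 0 (0.23) or the right array of day 7 (0.24). The day 1 fall kept its call in the 9 settings run. Rpl39l and Rpl10l are best known from the testis. Rpl39l was at 6.01 and 6.09 on day 0 and was called on day 1 only, at 6.33 and 6.40. That call was lost without any 1 of the 4 arrays, with differences from 0.28 to 0.36, and in 3 of 5 other settings. Rpl10l was at 7.57 and 7.75 on day 0 and passed the test on none of the 6 days by limma. Against Rpl10 it was lower on day 5 (-0.67 ± 0.14, adjusted p = 0.0011), day 7 (-0.43) and day 10 (-0.47). Rpl32l was at 8.66 and 8.76 on day 0 and 9.20 and 9.42 on day 3, and it rose on days 3, 5, 7 and 10. With quantile normalization the calls of days 5, 7 and 10 were lost (0.25, 0.20 and 0.18), as was that of day 10 with equal array medians (0.23) and without the right array of day 10 (0.27).

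Rps4l, which RefSeq lists as a transcribed pseudogene, followed Rps4x, the gene it resembles. It was at 8.60 and 8.53 on day 0 and at 9.11 and 9.57 on day 7, a rise of 0.78, while Rps4x rose by 0.78 as well. Their ratio did not pass the test on any of the 6 days, with changes from -0.14 to 0.07 (± 0.11), and signal shared between these near copies is possible. Of the genes that are not subunits, Rps19bp1, whose product binds Rps19, rose most on day 1, by 0.61, from 9.21 and 9.07 to 9.86 and 9.63. Rps23rg1, a retrogene of Rps23, fell on days 5, 7 and 10, with a day 7 difference of -0.35, from 7.93 and 8.09 to 7.68 and 7.63. Without the right array of day 0 its falls of days 5, 7 and 10 were -0.22, -0.27 and -0.24 and did not pass. The day 5 fall was also lost without the left or the right array of day 5 (-0.31 and -0.29). The falls of days 7 and 10 were lost without the right array of the same day (-0.32 and -0.26).

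Genes that build ribosomes were most often higher on day 1, when 13 of the 54 core genes had risen. The shares of all genes called on each day, given above, are the background for the counts of this and the following lists too. In a list of 53 genes for ribosome assembly factors and RNA polymerase I subunits, 41 rose and 0 fell on day 1, with a median of 0.60. On day 7, 25 rose and 7 fell (median 0.18), and on day 14, 4 rose and 16 fell (median -0.12). On day 14 the falling share of the list and its median were close to those of all genes, 30.5% and -0.11. Nop58, a core protein of the small nucleolar ribonucleoproteins that guide methylation of ribosomal RNA, rose by 1.68 on day 1 and 1.17 on day 7. Gnl3, or nucleostemin, rose by 1.45 and 0.52 on those days. Eif6, which keeps new large subunits from joining too early, rose by 1.36 and 0.72. Core ribosomal protein genes had medians of 0.14 and 0.58 on the same days.

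Of 10 chaperones of ribosomal proteins, 5 rose and 3 fell on day 1, and 1 rose and 3 fell on day 7. Grwd1, the chaperone of Rpl3, rose by 0.79 on day 1, and its day 7 difference was 0.22 (adjusted p = 0.053). Nap1l1 rose by 0.80 on day 1 and 0.87 on day 7. Bccip, the chaperone of Rpl23, fell on all 6 days, from a difference of -0.59 on day 1 to -0.99 on day 5, while Rpl23 itself rose by 0.55 on day 5.

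Of 20 other genes whose mRNAs begin with a TOP tract, 7 rose and 3 fell on day 1 and 8 rose and 3 fell on day 7, with medians of 0.08 and 0.11. Eef1a1, the elongation factor that delivers aminoacyl-tRNA, rose by 0.67 on day 1 and 1.31 on day 7. Pabpc1, the poly(A) binding protein, rose by 1.33 and 1.04. Npm1, a nucleolar chaperone, rose by 0.97 and 1.13. These TOP genes are those with the largest changes of the list, and 9 of the 20 passed the test in neither direction on day 7.

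Among 18 genes of the signalling to ribosomal protein mRNAs, 5 rose and 6 fell on day 1, and 3 rose and 11 fell on day 7. Ddit4l and Ddit4 encode related inhibitors of mTOR complex 1 and moved in opposite directions. Ddit4l was at -3.40 on day 1 and -1.98 on day 7, and Ddit4 rose by 1.43 and 0.96. Myc, which drives ribosome genes, was 3.33 higher on day 1 and 1.81 higher on day 7, so that its largest rise came before that of the core genes. Eif4ebp1, a translation repressor that mTOR inactivates, rose by 1.38 on day 1 and 0.35 on day 7. Mtor itself was at -0.03 on day 1 and -0.20 on day 7 (adjusted p = 0.041), and Larp1 was at -0.05 on day 1 and -0.39 on day 7 (adjusted p = 0.011). Of 7 genes of nonsense decay and ribosome rescue, 0 rose by limma and 4 fell on day 7, among them Hbs1l (-0.58), Usp10 (-0.38) and Ltn1 (-0.46).

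Most genes for proteins of the mitochondrial ribosome, which translates the mitochondrial genome, fell on every day after day 0. This included days 1 and 14, when 16 and 30 of the 63 cytosolic genes rose. Of 77 genes, 59 fell and 2 rose on day 1 (median -0.46), and 47 fell and 2 rose on day 7 (median -0.31). On day 14, 51 fell and 0 rose by limma (median -0.35). Mrpl18 was at -0.88 on day 1 and -1.22 on day 5, and Mrps28 was at -0.51 and -1.17. Mrps36, since reassigned to the alpha-ketoglutarate dehydrogenase complex, was at -1.13 on day 1 and -0.60 on day 7.

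**Figure D4:**
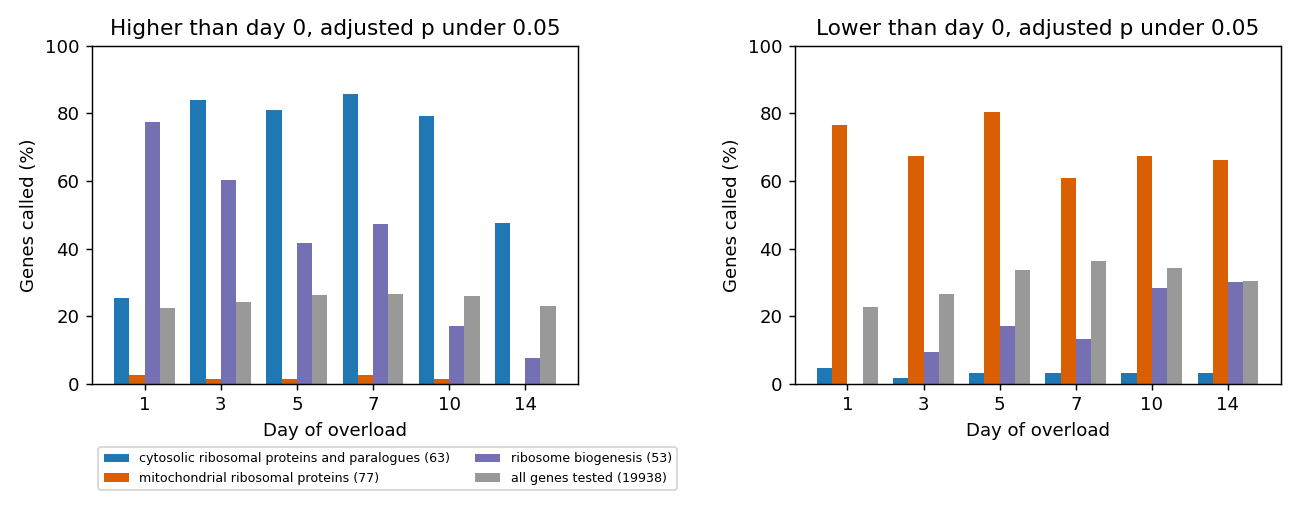
Share of genes (y axis, percent) called higher (left panel) or lower (right panel) than day 0 at an adjusted p under 0.05, by day of overload (x axis). Bars are the 63 cytosolic ribosomal protein genes and paralogues, 77 mitochondrial ribosomal protein genes, 53 ribosome biogenesis genes and all 19938 genes tested; biogenesis genes peak on day 1 with 41 of 53 higher, the cytosolic genes on day 7 with 54 of 63.

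Markers of other cell types changed over the same days. Of 17 macrophage and monocyte markers, 14 rose on day 1 and 16 on day 7, with medians of 1.76 and 2.55. Their summed level on the log2 scale was 13.1 and 13.5 on the day 0 arrays and 15.7 and 15.8 on those of day 7. Of 14 markers of dividing cells, 2 rose and 2 fell on day 1 and 14 rose on day 7, with medians of -0.31 and 2.37, and their summed level went from 12.2 and 12.8 to 14.4 and 14.7. Of 13 fibroblast and matrix markers, 5 rose and 5 fell on day 1 and 12 rose on day 7 (median 2.19), with summed levels of 14.8 and 14.9 against 16.6 and 16.6. Of the 20 fibre markers, 17 fell on day 7, and their summed level went from 18.1 and 18.2 to 17.4 and 17.6. Of 11 satellite cell and myoblast markers, 3 rose and 1 fell on day 1, 9 rose on day 7, 9 rose and 1 fell on day 10, and 6 rose on day 14 (medians 0.04, 0.90, 0.85 and 0.45). Their summed level was 14.6 on both day 0 arrays and 15.5 and 15.4 on those of day 7. Of 10 neutrophil markers, 10 rose on day 1 (median 2.62), 5 rose and 4 fell on day 7, and 1 rose and 6 fell on day 14. Of 10 endothelial markers, 1 rose and 6 fell on day 1, and 6 rose and 3 fell on day 7. Of 10 smooth muscle and pericyte markers, 9 fell on day 1, and 6 rose and 4 fell on day 7. Between days 7 and 14 the core median went from 0.58 to 0.24, that of dividing cells from 2.37 to 0.80 and that of satellite cells from 0.90 to 0.45, while the fibroblast median went from 2.19 to 2.32. In the step from day 10 to day 14, 9 of 14 markers of dividing cells, 7 of 11 of satellite cells and 8 of 17 of macrophages fell, as did 1 of 13 of fibroblasts, and 16 of the 17 macrophage markers were still above day 0 on day 14. The part of these cells in the ribosomal protein rise was not tested.

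**Figure D5:**
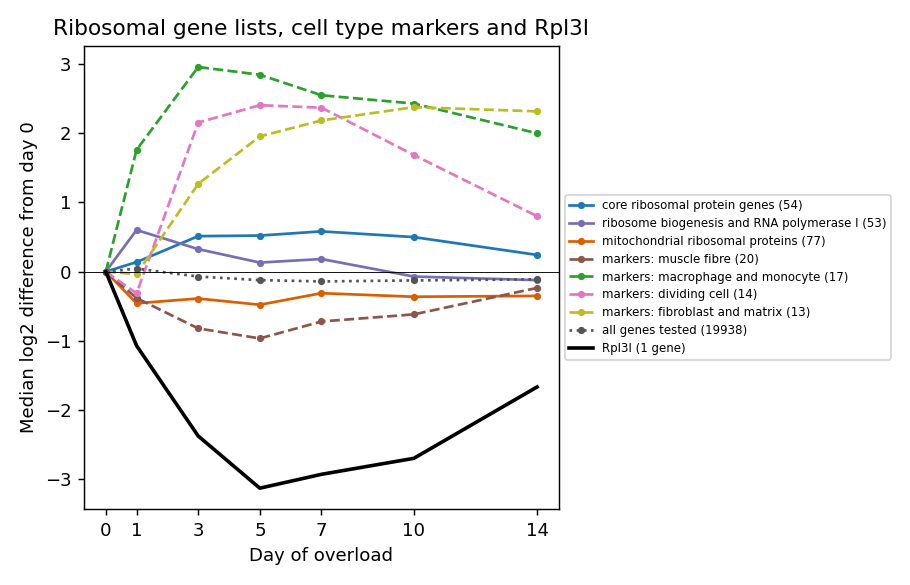
Median log2 difference from day 0 (y axis) by day of overload (x axis) for the core ribosomal protein genes, 2 related gene lists, 4 lists of cell type markers (dashed) and all genes (dotted), with Rpl3l as a single gene in black; numbers of genes are in brackets. The core median peaks at 0.58 on day 7, the biogenesis median at 0.60 on day 1, and Rpl3l lies below every list on all days after day 0.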

How the data were processed

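Deposited values were used as given: per the values themselves, the authors' series table holds log2 signals per probe set, from 2.35 to 14.8, already comparable between arrays. Partek is named in the submitters' processing notes, without a version. No source used here states the normalization method. The RNA input is given as 100 ng in the design text and as 250 ng in the labelling protocol.

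Of 35557 probe sets, 21789 had 1 gene symbol and were tested. Where a gene had several, the one with the highest mean stood for it, which gave 19938 genes. A further 239 probe sets that name a member together with other genes were left out. Day means were compared with limma 3.58.1 in R 4.3.3 over all 14 arrays (7 residual degrees of freedom, prior 4.95), two-sided, with Benjamini-Hochberg adjustment over all genes and a threshold of 0.05. Ratios to parent genes were fitted as further rows. The number of arrays limits the precision: the median standard error of a difference was 0.097.

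The members, gene lists and marker lists were chosen with earlier results of these data known. Named genes were all paralogues, P stalk genes, Rpsa and similarly named genes; the 5 largest and 5 smallest differences on days 7 and 1; genes that fell; 3 genes with the largest change per list, with Myc, Mtor, Larp1 and Eif4ebp1; and the 5 closest daily profiles. Fau, Rpl23, Ampd1 and genes called between days 10 and 14 were singled out with their values in view.

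Side differences (right pool less left pool, across genes) had correlations between days from -0.19 to 0.35 (median 0.07, 6 of 21 pairs over 0.1), so side was not part of the main model. These correlations cannot show whether the pools of a day share animals. On simulated data for day 7, only 50 of 19938 genes were changed at each size. A true difference of 0.25 was recovered in 2 of 50 genes, of 0.5 in 29 of 50 and of 1 in 47 of 50. In the data, 26.6% of all genes rose and 36.3% fell on day 7, which makes the adjusted threshold less strict. The simulated shares therefore do not tell how often differences near 0.25 were missed in the data. In the simulation, 11 unchanged genes were called on day 7.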

Additional observations from a re-analysis of the deposited data

How the results depend on the processing

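Rpl3l kept its direction and its call on all 6 days in every alternative run. The counts of rising genes on days 3, 5, 7 and 10 stayed within 1.5 times in every alternative, and no result reversed. For day 1 (16 rising), 10 rose with equal array medians, 10 when every probe set of a gene had to pass, 9 with array weights, 4 at a threshold of 0.01, 6 with only the 4 arrays compared and 8 with the median difference set to 0 (an alternative added after the data were seen), and 4 to 21 with an array left out. For day 14 (30 rising), 16 rose with equal array medians, 16 at 0.01, and 18 to 23 with an array left out. Between days 10 and 14 (10 called), 20 were called without the 25% of genes with the lowest signal, 22 with an intensity trend, 19 with array weights, 3 at 0.01, and 0 to 4 with an array left out. Between days 1 and 3 (49 called), 31 were called at 0.01 and 27 to 49 with an array left out. With the side as a replicate block, 1 gene was called between days 3 and 5 in place of 0, as in 1 of the 4 fits with an array left out there, and the block changed no other call of a named result. The arrays of a side share a label, and whether the 2 pools of a day share animals is not stated. The cause of these shifts was not tested. No background signal was available, so low signals such as that of Rpl39l have no detection call behind them.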

Other observations

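Rpl3l was lower in the right pool than in the left on each of the 6 overloaded days, with right minus left differences of -0.26 on day 1, -0.37 on day 3, -0.80 on day 5, -0.61 on day 7, -0.32 on day 10, -0.31 on day 14 and 0.03 on day 0. The right against left comparison over all days gave an unadjusted p of 0.00086 and an adjusted p of 0.28 by limma, so it failed the correction. Over the 63 genes, 0 were called between sides by limma, and 4 had an unadjusted p under 0.05, against 2092 of all genes. The difference in response between sides was not tested. With the side as a block the standard error of the Rpl3l differences was 0.15 in place of 0.25.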
